A study of Mus musculus with 8 samples.

Results

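The collagen alpha-chain genes encode the single polypeptide chains from which every collagen molecule is assembled. They were found by name alone, as every gene in the deposited expression tables whose symbol consists of Col, a type number, the letter a and a chain number, and this gave 43 genes among 22558. From textbook structure, 11 were placed in the fibrillar class, 9 among the fibril-associated collagens with interrupted helices (FACIT), 6 in the basement membrane class, 2 among the multiplexins, 7 in the beaded-filament class, 4 in the transmembrane class and 4 in a network and anchoring class. RNA was measured in 8 libraries of mouse cells. Of these, 6 came from cells sorted by flow cytometry for fibroblast activation protein-α (FAP), a surface protease of stromal cells, with 2 libraries each from dissociated visceral adipose tissue, skeletal muscle and pancreas, the last labelled as pancreatic stellate cells. The reference was 2 libraries of FAP-negative mouse embryonic fibroblasts (MEFs), sorted embryonic cells that were kept in culture for 3 passages and sorted again. The labels name no strain, age, sex, genotype or treatment. They call the 2 libraries of each group biological replicates and state that the isolations were done in duplicate. FAP status, embryonic origin, culture and tissue all differ between the FAP+ cells and the MEFs and cannot be told apart here. The RNA was amplified before library construction. The question named by the design is how FAP+ cells from mesenchymal tissues and from an epithelial organ compare with MEFs.

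Collagen chains wind into helical trimers of like or unlike chains, so that the partners of one molecule, such as Col1a1 with Col1a2 or Col4a1 with Col4a2, are needed together. Fibrillar collagens make the tension-bearing fibres of the interstitium, FACITs decorate those fibres, collagen IV builds the sheet of the basement membrane, and collagen VI makes the beaded microfilaments between the sheet and the fibres. Stromal fibroblasts of adipose tissue, muscle and pancreas are known as main sources of interstitial collagen, and cartilage and tendon cells as sources of the more specialised chains.

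Promoter windows of 6 members are shown because the results turn on these genes: Col1a2 and Col3a1 carried large fibrillar shares, Col10a1 and Col11a1 were high in MEFs and near the detection limit in most FAP+ libraries, and the neighbouring genes Col4a5 and Col4a6 moved together between tissues. Each window holds up to 250 bases just before the RefSeq transcript start, in mouse build GRCm38.p6, and reads 5′ to 3′ on the gene's own strand. Capitals mark 3 promoter motifs on either strand: the TATA box (TATAAA), the CCAAT box (CCAAT, or ATTGG on the other strand) and the GC box (GGGCGG).
Col1a2 promoter, chr6:4505368-4505617 (+ strand): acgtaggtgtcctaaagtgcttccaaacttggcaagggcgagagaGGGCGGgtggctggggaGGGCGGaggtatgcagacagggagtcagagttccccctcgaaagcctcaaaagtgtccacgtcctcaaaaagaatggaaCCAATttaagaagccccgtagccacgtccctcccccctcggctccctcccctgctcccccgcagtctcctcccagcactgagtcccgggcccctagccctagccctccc
Col3a1 promoter, chr1:45311288-45311537 (+ strand): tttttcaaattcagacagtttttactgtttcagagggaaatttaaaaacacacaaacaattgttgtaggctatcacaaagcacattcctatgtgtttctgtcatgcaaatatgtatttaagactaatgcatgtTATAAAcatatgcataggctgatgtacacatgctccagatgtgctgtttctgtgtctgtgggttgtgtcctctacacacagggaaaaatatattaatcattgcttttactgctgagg
Col10a1 promoter, chr10:34389731-34389980 (+ strand): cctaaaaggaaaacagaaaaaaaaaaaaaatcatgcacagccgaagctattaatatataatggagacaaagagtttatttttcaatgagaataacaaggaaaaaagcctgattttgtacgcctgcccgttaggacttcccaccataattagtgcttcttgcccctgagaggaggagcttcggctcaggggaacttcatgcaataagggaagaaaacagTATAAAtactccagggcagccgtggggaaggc
Col11a1 promoter, chr3:114030290-114030478 (+ strand): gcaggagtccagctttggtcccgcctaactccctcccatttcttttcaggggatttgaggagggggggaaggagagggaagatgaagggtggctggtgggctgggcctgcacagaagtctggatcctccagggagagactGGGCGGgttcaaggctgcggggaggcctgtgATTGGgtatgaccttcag
Col4a5 promoter, chrX:141475169-141475369 (+ strand): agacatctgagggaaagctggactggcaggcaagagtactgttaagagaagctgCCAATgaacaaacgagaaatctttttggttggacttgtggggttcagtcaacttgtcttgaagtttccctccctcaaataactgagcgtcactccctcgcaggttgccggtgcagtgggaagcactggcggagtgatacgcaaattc
Col4a6 promoter, chrX:141474096-141474326 (− strand): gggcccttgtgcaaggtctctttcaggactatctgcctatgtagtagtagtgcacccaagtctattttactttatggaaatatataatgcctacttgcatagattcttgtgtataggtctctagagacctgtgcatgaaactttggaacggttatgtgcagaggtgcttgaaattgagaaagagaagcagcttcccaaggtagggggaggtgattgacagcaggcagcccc

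A TATA box stood in 13.2% of 38 windows of 35 collagen genes and in 12.4% of all 32851 RefSeq windows, and a CCAAT box in 34.2% and 33.8%. A GC box stood in 57.9% of the collagen windows and in 32.7% of all windows. In these windows the Col10a1 stretch overlapped the gene Nt5dc1, and the Col4a5 and Col4a6 stretches lay on opposite strands of chromosome X. These are matches of letters only. RefSeq's gene order gave 8 pairs of neighbouring collagen genes, and the pairs Col4a1 with Col4a2, Col4a3 with Col4a4, Col6a1 with Col6a2 and Col6a5 with Col6a6 were higher than MEFs at both genes in all 3 tissues. Col5a2 lay beside Col3a1 and differed from it, with no call in any tissue. Col4a6 and Col4a5 lay side by side and were called in adipose and muscle at both genes and in pancreas at neither.

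The libraries held between 15516319 and 27759399 estimated fragments, and 42 of the 43 genes passed the filter on low values. The exception was Col19a1, which had at most 0.215 normalised CPM in any library. CPM here are fragments scaled to a common library size with TMM factors, a correction for differences in library composition, and 3 fragments in a library correspond to between 0.0900 and 0.229 CPM. Adipose library 1 stood apart. Its TMM factor was 0.516 against 0.889 to 1.31 in the others, and the correlation with its replicate over all tested genes was 0.918 against 0.973 to 0.980 in the other groups. In that library the authors' bias adjustment gave 4.17 fragments for each recovered read of Col1a1, against 1.24 to 1.75 in the other 7 libraries, and 0.489 for each read of Col1a2, against 0.892 to 1.06. Fap itself was at 27.98 and 34.4 CPM in adipose, 88.8 and 107 for muscle, 55.4 and 65.6 for pancreas, and 2.37 and 0.516 for MEFs, which follows the sort labels. In each tissue 9 of 9 fibroblast markers were higher than MEFs, but Fap, the marker used for the sort, is among the 9. Of 5 tested stellate cell markers, 2 were called higher than the MEF level for pancreas, and 3 each for adipose and muscle. No such marker was called higher in pancreas than in adipose or muscle, and 1 was lower than in adipose. Cygb was higher in pancreas than in MEFs, at 577 and 838 CPM against 0.690 and 0.455. Des was at 41.6 and 34.6 CPM and Vim at 3279.8 and 3442 CPM in the pancreas libraries, neither of them called. Gfap was at 0.104 and 0.468 CPM and Lrat at 0.104 and 0.312 CPM in the pancreas libraries, near the level of 3 fragments. The labels call the replicates biological but do not say that they came from separate animals. The p-values thus measure the spread between these libraries, which may be partly technical.

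Collagen chains made up more of the RNA in FAP+ cells than in MEFs. Collagen fragments were 1.21% and 0.884% of all fragments in the MEF libraries, against 2.42% and 2.54% for adipose, 2.88% and 2.58% for muscle and 2.16% and 2.41% for pancreas. Every FAP+ library lay above both MEF libraries. In bulk RNA of this kind, a different number of collagen-producing cells and a different amount of RNA per cell cannot be told apart. Within a library, levels of different genes were compared on the authors' bias-adjusted FPKM scale, which divides by gene length. Col1a2 and Col3a1 had the highest shares of the fibrillar chains in every FAP+ library but adipose library 1. Col3a1 took 17.9% and 29.0% of the summed collagen FPKM from adipose cells, 27.9% and 27.3% from muscle, 22.5% and 23.8% from pancreas, and 10.8% and 6.49% from MEFs. Col1a2 took 15.1% and 28.7% from adipose cells, 37.2% and 31.4% from muscle, 20.4% and 23.7% from pancreas, and 33.2% and 36.6% from MEFs. Col1a1 took 35.8% in adipose library 1, the library with the unusual adjustment, and 6.69% to 11.2% in the other 5 FAP+ libraries, below the 16.3% and 18.7% of the MEFs.

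By class, fibrillar collagens supplied 72.0% and 69.9% of collagen FPKM from adipose cells, 80.7% and 72.9% from muscle, 58.4% and 60.9% from pancreas, and 80.7% and 80.4% from MEFs. Beaded collagens supplied 17.2% and 17.4%, 12.5% and 17.4%, and 24.5% and 22.4% in the same tissues, and 10.36% and 10.53% in MEFs. The basement membrane class supplied 7.04% and 8.74% from adipose cells, 4.24% and 6.50% from muscle, 11.5% and 11.4% from pancreas, and 2.91% and 2.64% from MEFs. Pancreas cells thus had the lowest fibrillar share and the highest beaded and basement membrane shares of the 4 groups. Over the 6 FAP+ libraries the FACIT share was 1.56% ± 0.538 (SD) against 3.17% ± 0.343 in MEFs, and the network and anchoring share was 0.209% ± 0.115 against 2.27% ± 0.542. These last 2 shares did not overlap between FAP+ cells and MEFs and reached the smallest p that 28 splits allow (exact permutation test, 2-sided, p = 0.0357). The test counts the 6 FAP+ libraries as separate units, though they are 2 from each of 3 tissues. After adjustment over the 7 classes, no class share passed the threshold (adjusted p 0.125 to 0.143). From the RPKM table, which lacks the bias adjustment, the difference in fibrillar share was -6.20 percentage points in place of -11.5, and that in the beaded share 4.84 in place of 8.12.

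**Figure D1:**
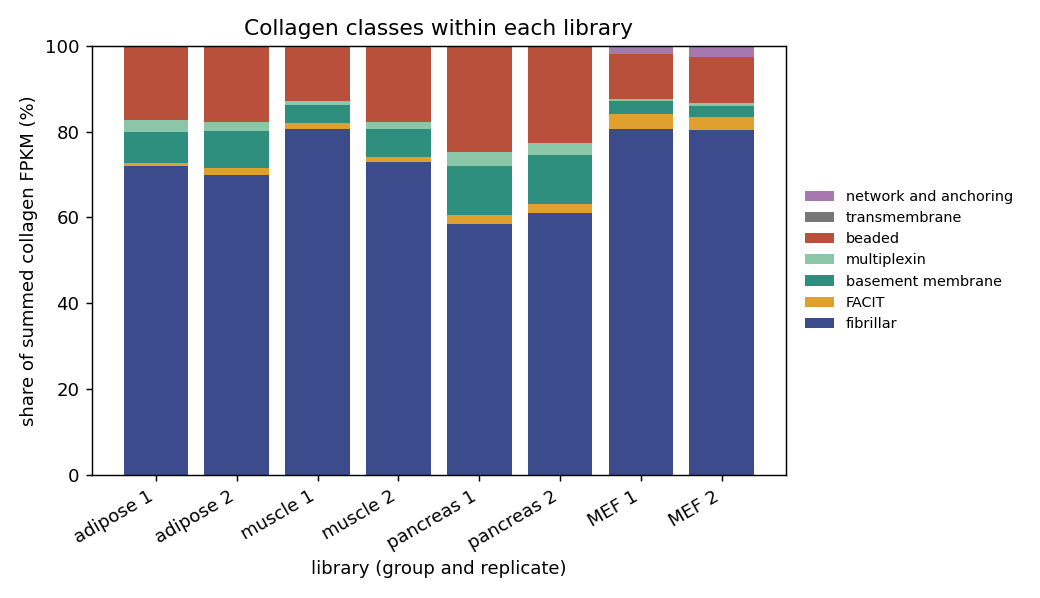
Share of each collagen class in the summed collagen FPKM of each library, in percent, as stacked bars for the 2 libraries of each group. Beaded and basement membrane shares are largest in the pancreas libraries, and the network and anchoring share is visible only in the 2 MEF libraries.

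Against MEFs, collagen genes were more often higher than lower in each tissue. Differences between groups were tested for every gene with edgeR's quasi-likelihood test on the fragment estimates, with Benjamini-Hochberg adjustment over 14847 genes, and a gene was called at an adjusted p below 0.05. In adipose, 24 of 42 tested members were called higher and 9 lower, where 26.9% and 23.2% of all genes were called, 50.1% in either direction. In muscle, 22 were called higher and 9 lower, against 23.7% and 20% of all genes, 43.8% together. In pancreas, 18 were called higher and 12 lower, against 23.1% and 19.4% of all genes, 42.5% together. The median log2 difference of the members was 2.24 for adipose, 1.72 for muscle and 0.72 for pancreas, and that of all genes 0.05, 0.03 and 0.02. On recovered reads the members' medians were 1.61, 1.98 and 1.22, so that adipose then lay below muscle, and without adipose library 1 the adipose median was 1.72. Members higher than MEFs in all 3 tissues numbered 17 of 42, where 16.5% of all genes had that pattern, and those lower in all 3 numbered 8, where 13.5% of all genes did. The 3 comparisons share the same 2 MEF libraries. Fitted to log2(FPKM + 1) with limma instead, 61.5% of the adipose calls among members were higher, against 72.7% with edgeR, and over all genes 21.7% against 53.6%.

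**Figure D2:**
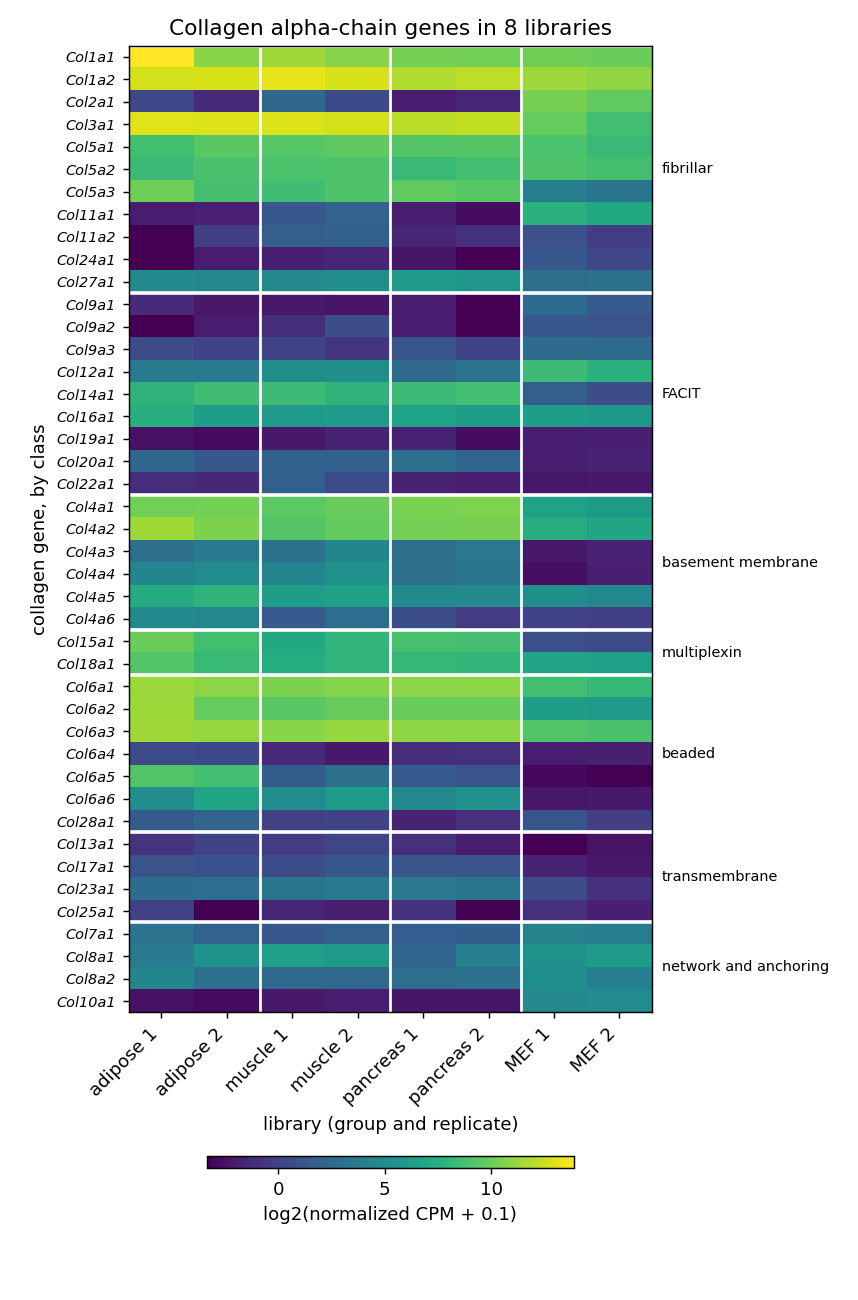
Level of each of the 43 collagen genes (rows, by class) in each of the 8 libraries (columns), as log2 of normalised CPM plus 0.1. Chains of collagen I and III are bright in every library, most beaded and basement membrane genes are brighter in the 6 FAP+ libraries, and Col2a1, Col11a1 and Col10a1 are brighter in the 2 MEF libraries.

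The fibrillar collagens divided by gene: Col3a1, Col5a3 and Col27a1 were higher than MEFs in all 3 tissues, and Col2a1, Col11a1 and Col24a1 lower in all 3. Of 11 genes, 5 were called higher and 3 lower in adipose, 4 and 3 in muscle, and 3 and 3 in pancreas. Col3a1, the single chain of collagen III, which forms thin fibres in compliant tissues, was at 8799.6 and 8069 CPM in adipose, 8012 and 6763 for muscle, 4329.9 and 4975 for pancreas, and 893 and 400.2 for MEFs. All FAP+ libraries were at least several times above both MEF libraries. Its log2 fold change against MEFs was 3.71 ± 0.49 (SE, adjusted p = 0.000787) in adipose, 3.51 ± 0.48 (adjusted p = 0.00104) for muscle and 2.85 ± 0.47 (adjusted p = 0.00248) for pancreas. Col1a2, the minor chain of collagen I, was at 6874 and 7362 CPM in adipose, 9889 and 7203 for muscle, 3634 and 4576 for pancreas, and 2546 and 2088 for MEFs. The MEF libraries were lowest, and pancreas lay between them and the other tissues. The log2 fold change was 1.62 ± 0.36 (SE, adjusted p = 0.00840) in adipose and 1.88 ± 0.37 (SE, adjusted p = 0.00504) in muscle, and pancreas did not pass the test at 0.83 ± 0.36 (SE, adjusted p = 0.0975). Col3a1 moved to 4.37 in adipose, 4.18 in muscle and 3.52 in pancreas without MEF library 1.

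Col1a1, the major chain of collagen I, was at 14824 and 1765 CPM in adipose, 2723 and 1717 for muscle, 1289 and 1180.0 for pancreas, and 1139 and 975 for MEFs. Adipose library 1 alone was far above the rest. The call in adipose, a log2 fold change of 2.97 ± 0.86 (SE, adjusted p = 0.0233), was lost without that library (0.74, adjusted p = 0.0715) and was smaller on the reads recovered from the RPKM table (1.26, adjusted p = 0.0368). In muscle the log2 difference was 1.07 ± 0.81 (SE, adjusted p = 0.313), and it was called once adipose library 1 was left out of the shared fit (1.06, adjusted p = 0.00810). In pancreas it was 0.22 ± 0.80 (SE, adjusted p = 0.843). Leaving out MEF library 1 or 2 also ended the Col1a1 call in adipose (adjusted p 0.114 and 0.120), and leaving out MEF library 2 ended that of Col1a2 there (adjusted p = 0.0531). Col1a1 moved to 3.80 in adipose without adipose library 2.

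Collagen V chains, which join collagen I and set fibril width, split apart. Col5a3 was at 1069.8 and 439 CPM in adipose, 388 and 548 for muscle, 799.8 and 673 for pancreas, and 16.6 and 10.1 for MEFs, and it was higher in every FAP+ library. Its log2 fold change was 5.82 ± 0.58 (SE, adjusted p = 0.000235) in adipose, 5.14 ± 0.56 (adjusted p = 0.000395) for muscle and 5.79 ± 0.58 (adjusted p = 0.000276) for pancreas. Col5a1 was at 398 and 716 CPM in adipose, 666 and 756 for muscle, 621 and 613 for pancreas, and 497 and 312 for MEFs, and Col5a2 at 331 and 492 CPM in adipose, 507 and 524 for muscle, 299.9 and 422 for pancreas, and 559.9 and 434 for MEFs. Neither passed the test in any tissue, with log2 differences between 0.46 and 0.81 for Col5a1 and between -0.46 and 0.05 for Col5a2, and the groups overlapped for both in adipose. Without adipose library 1, Col5a1 was called higher in adipose (0.83, adjusted p = 0.0456) and in muscle (0.81, adjusted p = 0.0227). Col27a1, a fibrillar chain of cartilage, was at 29.2 and 25.4 CPM in adipose, 26.9 and 36.7 for muscle, 68.8 and 50.5 for pancreas, and 7.83 and 8.41 for MEFs. It was higher in every FAP+ library, with a log2 fold change of 1.75 ± 0.28 (SE, adjusted p = 0.00198) in adipose, 1.97 ± 0.28 (adjusted p = 0.00130) for muscle and 2.88 ± 0.29 (adjusted p = 0.000296) for pancreas. Col5a3 moved to 5.05 in adipose without adipose library 1.

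Col2a1, the chain of collagen II in cartilage, was at 1.14 and 0.324 CPM in adipose, 5.29 and 1.37 for muscle, 0.156 and 0.260 for pancreas, and 1299 and 821 for MEFs. Its log2 difference was -10.60 ± 0.98 (SE, adjusted p = 0.000172) in adipose, -8.33 ± 0.88 (adjusted p = 0.000338) for muscle and -12.28 ± 1.07 (adjusted p = 0.000152) for pancreas. Col11a1, which joins collagen II in cartilage fibres and is also made in tendon, was at 0.152 and 0.203 CPM in adipose, 2.49 and 4.20 for muscle, 0.156 and 0.0520 for pancreas, and 201 and 138 for MEFs. Both muscle libraries lay above the adipose and pancreas libraries and far below the MEFs. Against MEFs the log2 difference was -9.80 ± 0.55 (SE, adjusted p = 3.31e-05) in adipose, -5.65 ± 0.42 (adjusted p = 8.77e-05) for muscle and -10.59 ± 0.57 (adjusted p = 4.64e-05) for pancreas. Col24a1, a minor fibrillar chain of developing bone, was at most 0.257 CPM in any FAP+ library and at 2.46 and 1.18 CPM in MEFs. It was called lower in all 3 tissues, but the muscle call was lost without either muscle library or either MEF library (adjusted p 0.0686 to 0.188). The adipose and pancreas calls were lost without MEF library 1 (adjusted p 0.0828 and 0.0651) and the pancreas call without pancreas library 2 (0.0707). Col11a2, a partner of Col11a1, was at 3.64 and 3.95 CPM in muscle, above the 1.80 and 0.759 CPM of the MEFs, and was not called in any comparison with MEFs. Col2a1 moved to -11.64 in adipose without adipose library 1, and to -9.86 in adipose without adipose library 2, and to -9.59 in muscle without muscle library 1, and to -7.65 in muscle without muscle library 2. Col11a1 moved to -11.52 in pancreas without pancreas library 1 (1 fragment left). Col24a1 moved to -3.44 in adipose without adipose library 1, and to -8.36 in adipose without adipose library 2 (0 fragments left), and to -8.40 in pancreas without pancreas library 1 (0 fragments left). Where 3 fragments or fewer remain, a fitted value depends on the prior count.

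Cartilage and tendon cells also make some of these chains. The summed level of 8 chondrocyte markers was 107 to 112 CPM in MEFs, 81.3 to 132 in muscle, 31.3 to 41.1 in adipose and 15.4 to 18.5 in pancreas. Of 7 tested, 5 were lower than MEFs for adipose, 3 for muscle and 5 for pancreas, and 1, 2 and 1 were higher. Acan, the core proteoglycan of cartilage, was at 31.97 and 32.9 CPM in MEFs and at most 0.915 CPM elsewhere, and Matn1 was at or below 0.300 CPM in every library. Ucma was at 0 in all adipose and pancreas libraries and Matn3 in both adipose libraries. The 5 tenocyte markers summed to 225 to 247 CPM in MEFs, 351 to 358 in muscle, 38.6 to 39.0 in adipose and 14.9 to 16.5 in pancreas. None of the 5 was at 0 in both libraries of any group. In adipose and pancreas both sums were below MEFs, as Col2a1 and Col11a1 were. In muscle both chains were lower, the chondrocyte sum overlapped with MEFs and the tenocyte sum lay above them. The 5 tenocyte markers were split in muscle, with 2 called higher than MEFs, 2 lower and a median log2 difference of -0.53. Much of the muscle chondrocyte sum came from the marker Comp, with a mean of 88.6 CPM in muscle and 33.2 in MEFs. The median log2 difference of the 7 tested chondrocyte markers was -1.36 in muscle. The part of such cells in the collagen differences was not tested.

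**Figure D3:**
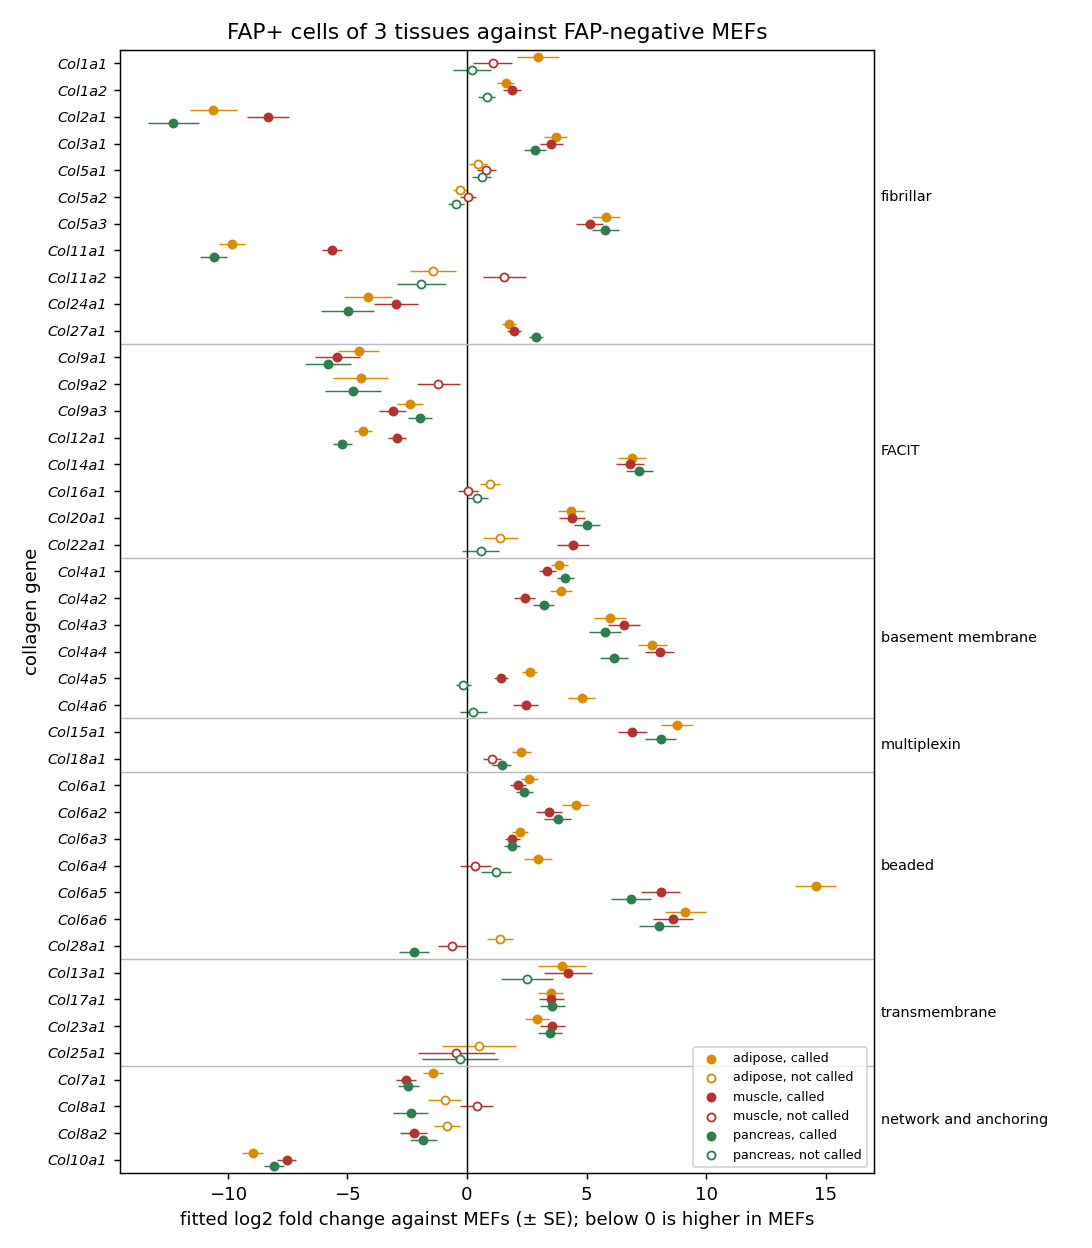
Fitted log2 fold change of each tested collagen gene in adipose, muscle and pancreas against MEFs, with bars of 1 standard error, filled where the adjusted p was below 0.05. All filled points of the basement membrane, multiplexin and transmembrane classes lie on the higher side, and all those of the network and anchoring class on the lower side.

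The FACIT class divided by gene. Of 8 tested genes, 2 were called higher and 4 lower in adipose, 3 and 3 in muscle, and 2 and 4 in pancreas. Col14a1, which coats collagen I fibres in mature connective tissue, was at 234 and 378 CPM in adipose, 351 and 227 for muscle, 342 and 419 for pancreas, and 3.54 and 1.58 for MEFs. Every FAP+ library lay far above both MEF libraries. The log2 fold change was 6.90 ± 0.58 (SE, adjusted p = 0.000108) in adipose, 6.82 ± 0.57 (adjusted p = 0.000135) for muscle and 7.21 ± 0.58 (adjusted p = 0.000115) for pancreas. Col12a1, the related FACIT of tendon, periosteum and embryonic connective tissue, went the other way at 13.3 and 14.4 CPM in adipose, 37.1 and 36.9 for muscle, 5.94 and 9.25 for pancreas, and 359 and 204 for MEFs. Muscle was the highest of the tissues and MEFs were above all of them. Its log2 difference was -4.34 ± 0.39 (SE, adjusted p = 0.000153) in adipose, -2.93 ± 0.37 (adjusted p = 0.000707) for muscle and -5.21 ± 0.41 (adjusted p = 0.000104) for pancreas. Col16a1, another fibril-associated chain, was at 186 and 74.8 CPM in adipose, 63.7 and 73.3 for muscle, 101 and 79.7 for pancreas, and 76.04 and 57.2 for MEFs. It was not called in any tissue, with log2 differences from 0.04 to 0.97, and its values overlapped with those of MEFs in adipose and muscle. Col14a1 moved to 7.57 in adipose, 7.48 in muscle and 7.89 in pancreas without MEF library 1.

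The collagen IX chains, which cover collagen II fibres in cartilage, were low in FAP+ cells. Col9a1 was at 0.305 and 0.122 CPM in adipose, 0.128 and 0.0858 for muscle, 0.156 and 0 for pancreas, and 6.39 and 2.91 for MEFs. Its log2 difference was -4.53 ± 0.87 (SE, adjusted p = 0.00423) in adipose and -5.41 ± 0.93 (SE, adjusted p = 0.00287) in muscle, and in pancreas, with 3 fragments over both libraries, MEFs were 59.7 times higher (95% counting interval 20.2 to 291). Col9a3 was between 0.515 and 2.35 CPM in FAP+ libraries and at 6.66 and 6.34 CPM in MEFs, lower in all 3 tissues. Col9a2 was at 2.52 and 2.00 CPM in MEFs and was called lower in adipose and pancreas, where it was at 0 in 1 library each. The Col9a2 calls were lost without either MEF library (adjusted p 0.0675 and 0.0505 in adipose) or, in pancreas, also without pancreas library 2 (0.0518 to 0.0919), and the pancreas call of Col9a3 was lost without the same 3 libraries (0.0708 to 0.113). Col20a1 was between 2.60 and 7.50 CPM in FAP+ libraries and at 0.150 and 0.212 CPM in MEFs, higher in all 3 tissues. Col22a1, which marks the junction of muscle and tendon, was at 0.381 and 0.284 CPM in adipose, 3.95 and 1.502 for muscle, 0.208 and 0.156 for pancreas, and 0.120 and 0.121 for MEFs, and against MEFs it was called in muscle alone at 4.43 ± 0.68 (SE, adjusted p = 0.00173). Col9a1 moved to -5.19 in adipose without adipose library 1 (3 fragments left), and to -3.92 in adipose without adipose library 2, and to -3.86 in adipose, -4.76 in muscle and -5.14 in pancreas without MEF library 1, and to -9.75 in pancreas without pancreas library 1 (0 fragments left), and to -4.86 in pancreas without pancreas library 2 (3 fragments left). Col9a2 moved to -3.75 in adipose without adipose library 1, and to -8.67 in adipose without adipose library 2 (0 fragments left), and to -8.72 in pancreas without pancreas library 1 (0 fragments left). Col9a3 moved to -2.71 in pancreas without pancreas library 1. Col22a1 moved to 3.57 in muscle without muscle library 1.

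All 6 basement membrane chains were higher than MEFs in adipose and in muscle, and 4 of 6 in pancreas. No member was lower by edgeR, at an unadjusted p below 0.05 or by DESeq2 in any of the 3 tissues. Col4a1 and Col4a2, the partner chains of the common collagen IV network, led the class. Col4a1 was at 1161 and 1221 CPM in adipose, 753 and 929 for muscle, 1334 and 1484 for pancreas, and 97.4 and 66.3 for MEFs, higher in all 3 tissues by a log2 fold change of 3.86 ± 0.36 (SE, adjusted p = 0.000167) in adipose, 3.36 ± 0.35 (adjusted p = 0.000314) for muscle and 4.11 ± 0.36 (adjusted p = 0.000156) for pancreas. Col4a2 was at 2732 and 1442 CPM in adipose, 607 and 851 for muscle, 1234 and 1292 for pancreas, and 165 and 109 for MEFs, with a log2 fold change of 3.93 ± 0.46 (SE, adjusted p = 0.000480) in adipose, 2.41 ± 0.43 (adjusted p = 0.00342) for muscle and 3.21 ± 0.45 (adjusted p = 0.00115) for pancreas. Every FAP+ library lay well above both MEF libraries for both chains. Col4a3 and Col4a4, chains of the network of kidney and lung, were near the detection limit in MEFs. Col4a3 was at 8.005 and 13.7 CPM in adipose, 8.87 and 23.4 for muscle, 7.97 and 10.9 for pancreas, and 0.120 and 0.212 for MEFs, with a log2 fold change of 5.99 ± 0.67 (SE, adjusted p = 0.000396) in adipose, 6.56 ± 0.68 (adjusted p = 0.000314) for muscle and 5.78 ± 0.67 (adjusted p = 0.000511) for pancreas. Col4a4 was at 23.4 and 30.9 CPM in adipose, 22.6 and 44.7 for muscle, 7.87 and 10.1 for pancreas, and 0.0600 and 0.182 for MEFs, with a log2 fold change of 7.75 ± 0.60 (SE, adjusted p = 8.32e-05) in adipose, 8.06 ± 0.61 (adjusted p = 8.87e-05) for muscle and 6.15 ± 0.58 (adjusted p = 0.000220) for pancreas. Col4a3 moved to 5.69 in muscle without muscle library 2. Col4a4 moved to 7.15 in adipose, 7.45 in muscle and 5.56 in pancreas without MEF library 1, and to 8.69 in adipose, 9.02 in muscle and 7.10 in pancreas without MEF library 2 (2 fragments left).

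Col4a5 and Col4a6, the X-linked partner chains, were graded by tissue. Col4a5 was at 154 and 233 CPM in adipose, 79.3 and 89.6 for muscle, 29.0 and 27.8 for pancreas, and 36.6 and 26.4 for MEFs. Adipose was highest, muscle followed, and pancreas overlapped with MEFs. Against MEFs the log2 difference was 2.62 ± 0.32 (SE, adjusted p = 0.000531) in adipose, 1.42 ± 0.30 (adjusted p = 0.00751) for muscle and -0.15 ± 0.30 (adjusted p = 0.714) for pancreas. Col4a6 was at 28.6 and 24.4 CPM in adipose, 3.00 and 7.38 for muscle, 1.62 and 0.676 for pancreas, and 1.05 and 0.850 for MEFs, in the same order. It measured 4.79 ± 0.57 (SE, adjusted p = 0.000515) in adipose, 2.45 ± 0.53 (adjusted p = 0.00817) for muscle and 0.27 ± 0.55 (adjusted p = 0.723) for pancreas. Without muscle library 2 the muscle calls of both were lost (adjusted p 0.0600 for Col4a5 and 0.0704 for Col4a6), as were those of Col4a5 without MEF library 2 (0.0580) and of Col4a6 without either MEF library (0.0521 and 0.0624).

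Endothelial cells also make basement membrane collagen. Their 8 markers summed to 546 to 704 CPM in adipose, 102 to 172 in muscle, 67.2 to 77.0 in pancreas and 3.13 to 3.66 in MEFs, with 8, 7 and 5 of 8 called higher than MEFs. As a different measure, the share of the class in collagen FPKM was highest in pancreas and, among the 3 tissues, lowest in muscle, with MEFs below all of them. In pancreas most of that sum was Tek, at 58.0 and 68.7 CPM, while Cdh5 was at 0.156 and 0.0520 CPM and Pecam1 at 1.41 and 0.935 CPM. Col4a1 was highest in the pancreas libraries, at 1334 and 1484 CPM. Mean CPM was highest in adipose for Col4a2, Col4a5 and Col4a6, and in muscle for Col4a3 and Col4a4. Mural cell markers summed to 153 to 172 CPM in adipose, 79.4 to 120 in muscle, 109 to 126 in pancreas and 131 to 148 in MEFs. None of the markers of either list was at 0 in both libraries of a group. The part of endothelial cells in the differences of adipose, muscle and pancreas was not tested.

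Both multiplexins, which link basement membranes to the interstitium and release anti-angiogenic fragments, were higher in adipose and pancreas. Col15a1 was at 1021 and 410.1 CPM in adipose, 141 and 253 for muscle, 467 and 430.0 for pancreas, and 1.77 and 1.49 for MEFs. Every FAP+ library lay far above both MEF libraries. The log2 fold change was 8.77 ± 0.66 (SE, adjusted p = 7.74e-05) in adipose, 6.91 ± 0.61 (adjusted p = 0.000167) for muscle and 8.10 ± 0.64 (adjusted p = 0.000108) for pancreas. Col18a1 was at 615 and 324 CPM in adipose, 158 and 244 for muscle, 278 and 253 for pancreas, and 103 and 92.6 for MEFs. It was higher by 2.27 ± 0.39 (SE, adjusted p = 0.00270) in adipose and 1.44 ± 0.38 (SE, adjusted p = 0.0184) in pancreas, and muscle did not pass at 1.04 ± 0.38 (SE, adjusted p = 0.0566). The pancreas call of Col18a1 was lost without either pancreas library or either MEF library (adjusted p 0.0728 to 0.0983). Col15a1 moved to 7.98 in adipose without adipose library 1.

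The 3 common collagen VI chains, and Col6a5 and Col6a6, were higher than MEFs in all 3 tissues. Of the 7 beaded-filament genes, 6 were called higher in adipose, 5 in muscle and 5 in pancreas, and Col28a1 was called lower in pancreas. Col6a1, Col6a2 and Col6a3 are the chains of the common microfilament. Col6a1 was at 2421 and 1858 CPM in adipose, 1443 and 1617 for muscle, 1855 and 1839 for pancreas, and 411 and 290.3 for MEFs, with a log2 fold change of 2.61 ± 0.35 (SE, adjusted p = 0.000833) in adipose, 2.12 ± 0.34 (adjusted p = 0.00212) for muscle and 2.40 ± 0.34 (adjusted p = 0.00134) for pancreas. Col6a2 was at 2638 and 872 CPM in adipose, 708 and 930.2 for muscle, 1036 and 1041 for pancreas, and 80.2 and 70.3 for MEFs. It rose most of the 3, by 4.54 ± 0.57 (SE, adjusted p = 0.000651) in adipose, 3.44 ± 0.54 (adjusted p = 0.00196) for muscle and 3.79 ± 0.55 (adjusted p = 0.00143) for pancreas. Adipose library 1 was the highest for Col6a2, and without it the adipose value was lower (3.54, adjusted p = 2.78e-05). Col6a3 was at 2698 and 2223 CPM in adipose, 1764 and 2214 for muscle, 1993 and 1918 for pancreas, and 575 and 490.0 for MEFs, with a log2 fold change of 2.21 ± 0.33 (SE, adjusted p = 0.00131) in adipose, 1.90 ± 0.32 (adjusted p = 0.00273) for muscle and 1.88 ± 0.32 (adjusted p = 0.00302) for pancreas.

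The alternative long chains of collagen VI, which can take the place of Col6a3, were barely detected in MEFs. Col6a6 was at 33.4 and 107 CPM in adipose, 32.3 and 66.6 for muscle, 25.9 and 40.4 for pancreas, and 0.120 and 0.121 for MEFs. It was higher in every FAP+ library, with a log2 fold change of 9.12 ± 0.86 (SE, adjusted p = 0.000186) in adipose, 8.61 ± 0.85 (adjusted p = 0.000255) for muscle and 8.04 ± 0.84 (adjusted p = 0.000332) for pancreas. Col6a5 was at 575 and 429 CPM in adipose, 3.32 and 7.89 for muscle, 2.76 and 2.03 for pancreas, and 0.0300 and 0 for MEFs. Both adipose libraries lay far above those of the other tissues. With 1 fragment over both MEF libraries, adipose exceeded MEFs by a ratio of 31798 (95% counting interval 5706 to 1256030), muscle by 401 (71.3 to 15916) and pancreas by 159 (27.8 to 6335), all called by edgeR (adjusted p 3.53e-05, 0.000265 and 0.000624). Col6a4 was at 1.45 and 1.26 CPM in adipose, 0.319 and 0.129 for muscle, 0.365 and 0.416 for pancreas, and 0.150 and 0.182 for MEFs, and it was called against MEFs in adipose alone at 2.98 ± 0.59 (SE, adjusted p = 0.00496), a call lost without MEF library 1 (adjusted p = 0.0530). Col28a1, a collagen of peripheral nerve, was at 2.82 and 4.75 CPM in adipose, 0.893 and 0.987 for muscle, 0.208 and 0.416 for pancreas, and 2.07 and 0.850 for MEFs. The pancreas call, -2.21 ± 0.64 (SE, adjusted p = 0.0260), was lost without MEF library 1, either pancreas library or either muscle library (adjusted p 0.0537 to 0.166). Col6a5 moved to 16.36 in adipose, 9.89 in muscle and 8.67 in pancreas without MEF library 1 (0 fragments left), and to 13.77 in adipose, 7.32 in muscle and 6.07 in pancreas without MEF library 2 (1 fragment left), and to 7.33 in muscle without muscle library 2. Col6a6 moved to 9.73 in adipose without adipose library 1, and to 8.04 in adipose without adipose library 2, and to 7.99 in muscle without muscle library 2.

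The transmembrane collagens were low in every group. Of 4 genes, 3 were called higher in adipose, 3 in muscle and 2 in pancreas. Col23a1 was at 6.63 and 7.58 CPM in adipose, 9.44 and 12.9 for muscle, 10.996 and 9.67 for pancreas, and 1.41 and 0.455 for MEFs, with a log2 fold change of 2.92 ± 0.50 (SE, adjusted p = 0.00262) in adipose, 3.57 ± 0.51 (adjusted p = 0.00127) for muscle and 3.46 ± 0.51 (adjusted p = 0.00149) for pancreas. Col17a1, the collagen of hemidesmosomes in epithelia, was at 1.98 and 1.91 CPM in adipose, 1.47 and 2.45 for muscle, 2.08 and 1.97 for pancreas, and 0.210 and 0.121 for MEFs, with a log2 fold change of 3.51 ± 0.52 (SE, adjusted p = 0.00133) in adipose, 3.53 ± 0.52 (adjusted p = 0.00143) for muscle and 3.57 ± 0.52 (adjusted p = 0.00141) for pancreas. Of the keratinocyte markers, Krt5 was at most 0.152 CPM and Krt14 at most 0.457 CPM in any library, and the 7 markers summed to 7.95 to 19.7 CPM in FAP+ libraries and 35.1 to 38.5 in MEFs. Col13a1 was between 0.156 and 1.12 CPM in FAP+ libraries, with 3 fragments over both MEF libraries. Adipose exceeded MEFs by a ratio of 18.7 (95% counting interval 5.86 to 95.5) and muscle by 21.5 (6.83 to 109), both called, and pancreas by 6.32 (1.67 to 35.3), not called. Without MEF library 1 both calls were lost (adjusted p 0.0734 and 0.0655), and the muscle call also without muscle library 2 (0.0823). Col25a1, a neuronal transmembrane collagen, was at most 0.915 CPM and was not called. Col13a1 moved to 7.07 in adipose and 7.35 in muscle without MEF library 2 (0 fragments left). Col23a1 moved to 3.92 in adipose, 4.57 in muscle and 4.47 in pancreas without MEF library 1, and to 2.33 in adipose without MEF library 2.

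The network and anchoring genes were higher in MEFs where they were called. Of 4 genes, 2 were lower in adipose, 3 in muscle and 4 in pancreas, and none was higher by edgeR, at an unadjusted p below 0.05 or by DESeq2. Col10a1, the collagen of hypertrophic cartilage, was at 0.0762 and 0.0406 CPM in adipose, 0.128 and 0.172 for muscle, 0.104 and 0.104 for pancreas, and 26.8 and 31.8 for MEFs. MEFs were far above all tissues. In adipose, with 2 fragments in all, MEFs were 553 times higher (95% counting interval 153 to 4570, adjusted p = 3.19e-05), and the log2 difference was -7.53 ± 0.39 (SE, adjusted p = 4.45e-05) in muscle and -8.06 ± 0.41 (SE, adjusted p = 4.53e-05) in pancreas. Col7a1, the anchoring fibril collagen beneath epithelia, was at 9.15 and 4.34 CPM in adipose, 2.42 and 3.69 for muscle, 3.34 and 3.22 for pancreas, and 20.8 and 15.2 for MEFs. Its log2 difference was -1.43 ± 0.41 (SE, adjusted p = 0.0230) in adipose, -2.55 ± 0.43 (adjusted p = 0.00273) for muscle and -2.45 ± 0.43 (adjusted p = 0.00333) for pancreas. Col8a1, a chain of hexagonal networks in vessel walls and the eye, was at 13.3 and 46.1 CPM in adipose, 85.1 and 66.3 for muscle, 4.69 and 17.8 for pancreas, and 44.2 and 69.9 for MEFs. Muscle reached the MEF level and pancreas fell below it, at -2.34 ± 0.73 (SE, adjusted p = 0.0349). Col8a2, its partner, was at 23.2 and 7.50 CPM in adipose, 5.80 and 5.75 for muscle, 6.98 and 8.37 for pancreas, and 37.3 and 16.8 for MEFs, lower in muscle and pancreas at -2.23 ± 0.58 (SE, adjusted p = 0.0164) and -1.82 ± 0.57 (SE, adjusted p = 0.0339). Several of these calls were lost when a single library was left out of the shared fit. The adipose call of Col7a1 was lost without either MEF library (adjusted p 0.120 and 0.0506), and the pancreas call of Col8a1 without any MEF or muscle library or pancreas library 1 (0.0668 to 0.167). The Col8a2 call was lost in muscle without MEF library 1 or either muscle library (0.0967 to 0.105), and in pancreas without MEF library 1 or any muscle or pancreas library (0.0645 to 0.214). Col7a1 moved to -2.04 in adipose without adipose library 1. Col8a1 moved to -3.62 in pancreas without pancreas library 2.

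Between the tissues, few collagen genes differed. In muscle against adipose, 2 of 42 members were called higher in muscle and 3 lower, where 2.34% and 3.78% of all genes were called, 6.12% together. In pancreas against adipose, 1 was higher and 4 lower, against 3.32% and 5.73% of all genes, 9.05% together. In pancreas against muscle, none was higher and 4 were lower, against 1.54% and 2.14% of all genes, 3.67% together. In that comparison 3 members were higher at an unadjusted p below 0.05, and none was called by DESeq2. Over the 3 comparisons in this order, 11.9%, 11.9% and 9.52% of the tested members were called in either direction. These lie above the shares of all genes, but each rests on few calls. The genes below are given for their size. Of the 14 calls, the one of Col6a5 in muscle against adipose was kept under every alternative fit, and 13 were lost when some single library was left out.

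Col6a5 and Col4a6 were higher in adipose than in both other tissues. Col6a5, at 575 and 429 CPM in adipose against 2.03 to 7.89 CPM in the other tissues, was lower by -6.47 ± 0.56 (SE, adjusted p = 0.00231) in muscle and -7.71 ± 0.60 (SE, adjusted p = 0.00193) in pancreas. Without muscle library 2 the muscle value was larger (-7.24, adjusted p = 0.0259). The pancreas call missed the threshold without pancreas library 2 (adjusted p = 0.0544). Its neighbour Col6a6 did not differ with a call between tissues. Col4a6 was lower by -2.34 ± 0.51 (SE, adjusted p = 0.0393) in muscle and -4.52 ± 0.57 (SE, adjusted p = 0.00553) in pancreas. Col4a5 was lower in pancreas, by -2.77 ± 0.32 (SE, adjusted p = 0.00427) against adipose and -1.57 ± 0.30 (SE, adjusted p = 0.0356) against muscle, and muscle against adipose did not pass at -1.20 ± 0.30 (SE, adjusted p = 0.0610). Without pancreas library 1 or 2 the pancreas calls against adipose were lost for Col4a6 (adjusted p 0.0631 and 0.0680) and Col4a5 (0.0732 and 0.0701). The 8 endothelial markers, of which 4 were lower in muscle and 7 in pancreas than in adipose, moved in the same direction, and their part was not tested. The muscle call of Col4a6 was lost without any of 7 libraries, all but adipose library 2 (adjusted p 0.0520 to 0.254), and the Col4a5 call against muscle without any single muscle, pancreas or MEF library (0.0685 to 0.277).

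Col6a4 was lower in muscle than in adipose by -2.62 ± 0.61 (SE, adjusted p = 0.0490), at 0.319 and 0.129 CPM against 1.45 and 1.26. Col28a1 was lower in pancreas than in adipose by -3.58 ± 0.65 (SE, adjusted p = 0.0172). Col27a1 was higher in pancreas than in adipose by 1.13 ± 0.28 (SE, adjusted p = 0.0447), and neither adipose library reached the pancreas values. The call of Col6a4 was lost without any of 7 libraries, all but adipose library 2 (adjusted p 0.0909 to 0.347), that of Col28a1 without either pancreas library or muscle library 2 (0.0506 to 0.160), and that of Col27a1 without any single muscle, pancreas or MEF library (0.0863 to 0.271).

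Muscle cells had more Col11a1 and Col22a1 than the other tissues, and more Col12a1 than pancreas. Col11a1, at 2.49 and 4.20 CPM in muscle and at most 0.203 in the other tissues, was higher than adipose by 4.16 ± 0.51 (SE, adjusted p = 0.00698) and higher than pancreas, with pancreas lower by -4.95 ± 0.55 (SE, adjusted p = 0.00523). Col22a1, at 3.95 and 1.502 CPM in muscle, was higher than adipose by 3.03 ± 0.64 (SE, adjusted p = 0.0374), with pancreas lower than muscle by -3.85 ± 0.68 (SE, adjusted p = 0.0261). Col12a1 was lower in pancreas than in muscle by -2.28 ± 0.36 (SE, adjusted p = 0.0182), and muscle against adipose did not pass the test at 1.42 ± 0.35 (SE, adjusted p = 0.0583). Tenocyte markers went the same way, with 3 of 5 higher in muscle than adipose and 3 of 5 lower in pancreas than muscle, and their part was not tested. Without muscle library 2 the Col11a1 call against adipose was lost (adjusted p = 0.0553), and without pancreas library 1 or 2 that against muscle (0.0507 and 0.0680). The Col12a1 call was lost without any muscle or pancreas library (0.106 to 0.201). Col22a1 was lost against adipose without any library but adipose library 2 (0.0680 to 0.313) and against pancreas without any muscle, pancreas or MEF library (0.0660 to 0.236).

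**Figure D4:**
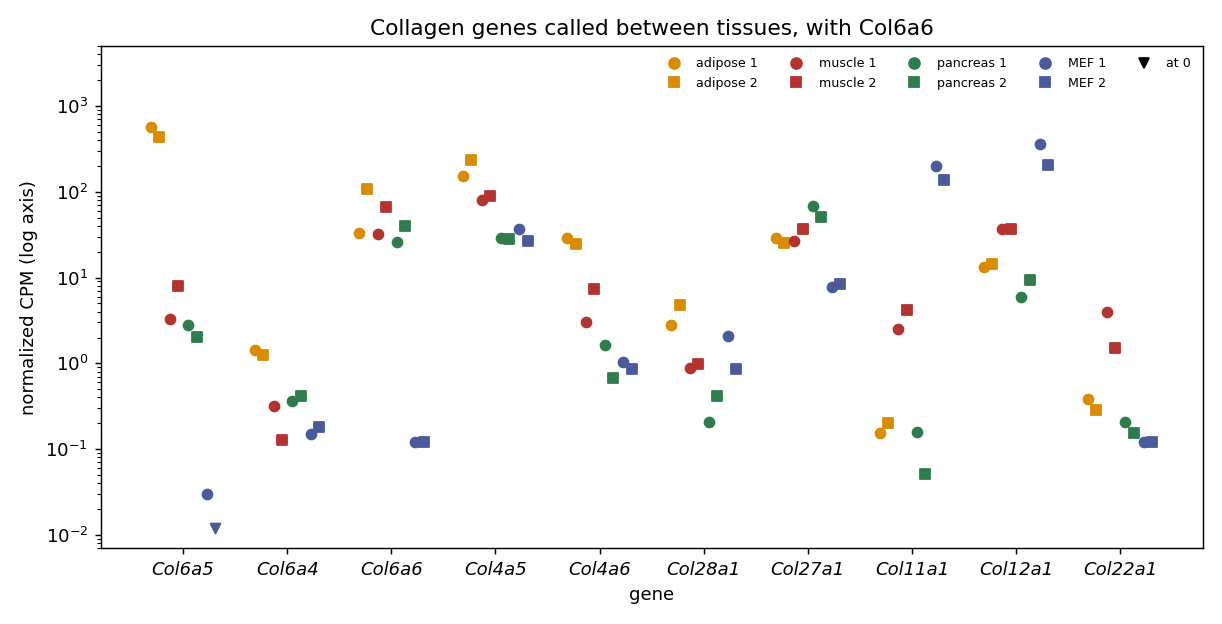
Normalised CPM (log axis) of the 9 collagen genes that were called between tissues, and of Col6a6, in each of the 8 libraries. Col6a5 is at 575 and 429 CPM in adipose and at most 7.89 CPM in muscle and pancreas, while Col11a1 and Col22a1 are higher in muscle, and the triangle marks a library with 0 fragments.

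Ratios between partner chains were compared on the FPKM scale within each library, in the 6 FAP+ libraries against the 2 MEF libraries. As for the class shares, the permutation test took no account of which FAP+ libraries shared a tissue. The log2 ratio of Col6a1 to Col6a2 was -0.22 and 1.00 for adipose, 0.94 and 0.70 for muscle, 0.75 and 0.73 for pancreas, and 2.27 and 1.95 for MEFs. The difference was -1.46, without overlap of the groups (exact permutation test, 2-sided, p = 0.0357, adjusted over 4 pairs 0.0714). The log2 ratio of Col6a3 to Col6a1 lay between -2.26 and -1.87 in FAP+ libraries and at -1.84 and -1.57 in MEFs, a difference of -0.40 (exact p = 0.0357, adjusted 0.0714). That of Col4a1 to Col4a2 was -1.28 and -0.28 in adipose, between 0.07 and 0.27 in muscle and pancreas, and -0.80 and -0.76 in MEFs, a difference of 0.62 (exact p = 0.214, adjusted 0.286). That of Col1a1 to Col1a2 was 1.24 in adipose library 1, between -1.94 and -1.36 in the other 5 FAP+ libraries, and -1.03 and -0.97 in MEFs, a difference of -0.26 (exact p = 0.857). Without adipose library 1 they were -1.29, -0.39, 0.84 and -0.76 in the same order, each at an adjusted p of 0.0476, the smallest that 7 libraries allow. The ratio of Col1a1 to Col1a2 thus changed most, and that of Col6a3 to Col6a1 hardly in size. From the RPKM table they were -1.41, -0.37, 0.91 and -0.71, each at an adjusted p of 0.0357.

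**Figure D5:**
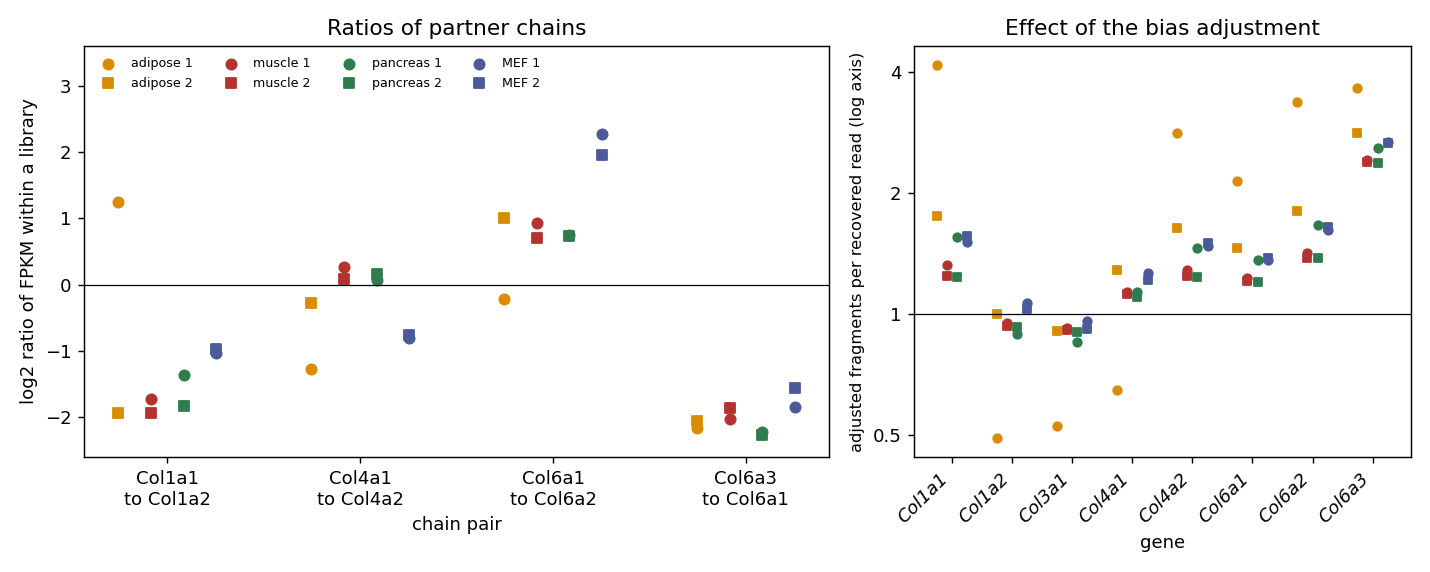
Left, log2 ratio of the FPKM of partner chains in each of the 8 libraries. Right, estimated fragments per recovered read for the 8 main chains (log axis). Adipose library 1 lies apart at 4.17 for Col1a1, 0.489 for Col1a2, 2.82 for Col4a2 and 3.36 for Col6a2, among others.

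The other genes of collagen formation are given from lists by role, to be read against the 26.9%, 23.7% and 23.1% of all genes called higher and the 23.2%, 20% and 19.4% called lower in adipose, muscle and pancreas. Of 9 tested propeptide processing genes, 6, 6 and 5 were higher than MEFs for adipose, muscle and pancreas and 1 lower in each, with list medians of 2.80, 2.33 and 2.61. Adamts2, which removes the amino propeptide of fibrillar chains, was higher by 6.21 ± 0.37, 5.75 ± 0.36 and 5.26 ± 0.35 on the log2 scale, and Tll1, a carboxy propeptide protease, was lower in each tissue (-4.73 ± 0.60, -2.28 ± 0.51 and -5.06 ± 0.61). Of 14 hydroxylation and glycosylation genes, 4, 3 and 3 were higher and 2, 5 and 3 lower. Within them Colgalt2, a collagen galactosyltransferase, was higher in each tissue (5.82 ± 0.46, 7.67 ± 0.48 and 7.05 ± 0.47) and the prolyl hydroxylase subunit P4ha3 lower (-7.87 ± 0.48, -4.25 ± 0.38 and -6.05 ± 0.42). Of 16 tested chaperone and export genes, 2, 2 and 2 were higher and 1, 3 and 2 lower, so that most did not pass the test. Creb3l1, a transcription factor of the secretory pathway, was higher in each tissue (2.97 ± 0.36, 2.74 ± 0.35 and 2.60 ± 0.35).

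Cross-linking enzymes were split, with 3 of 6 higher and 2 of 6 lower in each tissue. Lox, the main lysyl oxidase, was lower (-3.13 ± 0.59, -3.20 ± 0.59 and -3.89 ± 0.61), while Tgm2, a transglutaminase, was higher (5.07 ± 0.47, 3.00 ± 0.43 and 3.48 ± 0.44). Of 17 fibril-associated regulators, 10, 12 and 9 were higher and 3, 2 and 4 lower. Tnxb (tenascin-X), Dpt (dermatopontin) and Dcn (decorin), which bind and space collagen fibrils, were among the higher genes, with Tnxb at 12.51 ± 0.54, 12.98 ± 0.55 and 12.31 ± 0.54. Between tissues Comp, a cartilage and tendon matrix protein that binds collagen, was higher in muscle than in adipose by 6.95 ± 0.50 (SE, adjusted p = 0.00133) and lower in pancreas than in muscle by -6.11 ± 0.48 (SE, adjusted p = 0.00147). Of 10 tested collagen receptors, 4, 4 and 3 were higher, among them Mrc2, an endocytic collagen receptor (2.04 ± 0.44, 1.80 ± 0.43 and 2.02 ± 0.44), and 1, 2 and 1 lower, with Adgrg6 among the lower genes (-4.28 ± 0.54, -3.19 ± 0.50 and -4.16 ± 0.53). Of 14 tested genes of collagen breakdown, 7, 9 and 7 were higher and 2, 4 and 4 lower, and the cartilage collagenase Mmp13 was lower in muscle (-4.37 ± 0.88), at 0.574 and 0.0858 CPM against 8.70 and 4.22 in MEFs.

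Of 20 transcriptional regulators of collagen genes, 3, 6 and 3 were higher and 7, 4 and 7 lower. Only in muscle was this near the shares over all genes. In adipose and pancreas the share called lower was above that of all genes and the share called higher below it, on few genes. Scx, the tendon regulator, was lower than MEFs in each tissue (-5.50 ± 0.75, -4.21 ± 0.69 and -7.50 ± 0.84), and so was Sox6, a cartilage regulator, in adipose (-4.89 ± 0.45) and muscle (-3.92 ± 0.42). Tbx5 differed between tissues, higher in muscle than in adipose by 7.73 ± 0.67 (SE, adjusted p = 0.00231). Median log2 differences of these 8 lists against MEFs lay between -0.35 and 2.80, where all genes lay between 0.02 and 0.05. Markers of other cells of the organs were also summed. The 6 acinar markers summed to 124 and 56.2 CPM in the pancreas libraries and at most 6.02 CPM elsewhere. Mesothelial markers, 7 in all, summed to 177 and 70.3 CPM in pancreas and 78.1 and 97.9 in adipose. They summed to 7.97 and 5.66 CPM in muscle and 40.7 and 47.4 in MEFs. The 6 adipocyte markers summed to 164 and 137 CPM in adipose and 35.7 to 89.9 elsewhere. Whether these markers came from other cells or from the sorted cells was not tested. The part of such other cells in the collagen values was not tested either.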

How the data were processed

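RNA-seq tables of 8 libraries, 2 in each of 4 groups, were used as the authors deposited them. They hold estimated fragment counts per gene after a bias adjustment, FPKM values made by the authors from the same adjusted fragments, and RPKM values that the authors made from read counts, per the labels and the file headers. Bowtie2, TopHat2, HTSeq and edgeR, with no versions, and mm9 as the build are listed in the submitters' processing notes, and no source used here names the program that adjusted for bias. Another 6 columns of each table belong to no library of the series and were not used. The deposited estimated counts were rounded and tested with edgeR 4.0.16 (TMM scaling, its filter on low counts, quasi-likelihood fit over all 8 libraries with 4 residual degrees of freedom, no covariates) in R 4.3.3, in 6 comparisons. The standard error of a log2 fold change was computed from the same fit. DESeq2 1.42.0, limma 3.58.1 on log2(FPKM + 1) or log2(FPKM + 0.1), and edgeR on reads recovered from the steps of the RPKM values were alternatives, with other scalings, filters, a replicate block and each library left out. Reads came out whole, within 0.01, for 20965 of 22609 genes, which are all genes above 0 in at least 2 libraries. Values in every library were given for the 3 members of each class with the highest FPKM and for the 2 called members per class and comparison with the largest change, and for other members where a class is described. The collagen genes and all lists were chosen with earlier results of these data known, and the stellate marker list was added after the files were seen. Counting intervals and the limit of 3 fragments cover counting error only, and the RNA was amplified without molecular identifiers named in the labels.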

Additional observations from a re-analysis of the deposited data

Results flagged for a closer look

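The tissues differed in 14 tests of collagen genes, given as log2 differences. Muscle against adipose gave 4.16 for Col11a1, 3.03 for Col22a1, -2.34 for Col4a6, -2.62 for Col6a4 and -6.47 for Col6a5. Pancreas against adipose gave 1.13 for Col27a1, -3.58 for Col28a1, -2.77 for Col4a5, -4.52 for Col4a6 and -7.71 for Col6a5. Pancreas against muscle gave -4.95 for Col11a1, -2.28 for Col12a1, -3.85 for Col22a1 and -1.57 for Col4a5. Each was singled out because the difference between the tissues itself passed edgeR's test at an adjusted p below 0.05. The Col6a5 difference between muscle and adipose kept its call under every alternative run.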

How the results depend on the processing

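Of 94 collagen calls against MEFs, 64 kept direction and call under every alternative that could test them, and none reversed. Of 14 calls between tissues, 1 did. The cause of these changes was not tested.

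Calls between tissues moved most. For muscle against adipose, 2 members higher became 5 with DESeq2, 1 with a filter of 5 CPM, 0 with only the groups compared, 0 in each of the limma fits and 6 on recovered reads, and lay between 0 and 5 when 1 library was left out. The 3 lower became 8 with DESeq2, 1 with only the groups compared, 1 with limma at either pseudocount, and between 1 and 13 with 1 library left out. For pancreas against adipose, 1 higher became 0 with RLE scaling, 0 without a filter, 0 with only the groups compared, 0 with limma on log2(FPKM + 0.1), 2 with limma above 1 FPKM, 3 on recovered reads, and between 0 and 1 with 1 library left out. The 4 lower became 7 with DESeq2, 2 in each limma fit, and between 0 and 13 with 1 library left out. For pancreas against muscle, 0 higher became 2 with only the groups compared, and between 0 and 1 with 1 library left out. The 4 lower became 10 with DESeq2, 10 with only the groups compared, 0 in each limma fit, 7 on recovered reads, and between 0 and 10 with 1 library left out. On recovered reads, 24 members were higher than MEFs and 10 lower in adipose, 26 and 9 in muscle, and 21 and 12 in pancreas. Lower calls of pancreas against MEFs, 12 in the main analysis, lay between 6 and 13.

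With a replicate block, muscle against adipose gave 2 higher and 1 lower, pancreas against adipose 0 and 5, and pancreas against muscle 0 and 6, while counts against MEFs stayed at 24 and 9, 22 and 9, and 18 and 12. Deviations of same-numbered libraries correlated at 0.35 for adipose and pancreas, 0.11 for adipose and muscle, and between -0.16 and 0.003 for the other 4 pairs of groups. As not every pair exceeded 0.1, the block was kept as an alternative.

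The ratio of Col1a1 to Col1a2 moved to -0.71 from the RPKM table and -0.76 without adipose library 1, Col4a1 to Col4a2 to 0.91 and 0.84, Col6a1 to Col6a2 to -1.41 and -1.29, and Col6a3 to Col6a1 to -0.37 and -0.39, all then past the threshold. With 1 library left out, the 4 ratios lay between -0.76 and -0.12, 0.53 and 0.84, -1.62 and -1.29, and -0.53 and -0.26. Limits are the 2 libraries per group, the tissues that the permutation tests do not account for, the bias adjustment of adipose library 1, and genes near 3 fragments.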
